A study of Mus musculus with 4 samples.

Results

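Type 1 conventional dendritic cells (cDC1) of B16-F10 melanomas were described here from single-cell RNA sequencing. Cells were taken as members of this type when they held at least 2 UMIs (unique molecular identifiers, 1 per captured transcript) of Xcr1 and Clec9a together. Xcr1 lies at chr9:123852315-123862029 on the minus strand and Clec9a at chr6:129408862-129424763 on the plus strand (mm10). Members also had to hold no UMI of Cd3d, Cd3e, Cd3g or Cd79a and under 2 UMIs of Fscn1 and Ccl22 together, which set aside T cells, B cells and mature dendritic cells. The rule found 210 members among the 12047 barcodes of the 2 endogenous libraries that passed the quality limits (1000 UMIs and 500 genes or more, mitochondrial UMIs not above 10%). The whole series held 15132 such barcodes.

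The tumours were grown in C57BL/6 mice and given Pmel-1 CD8 T cells on day 3. Pmel-1 cells bear a T cell receptor transgene specific for gp100, an antigen of melanocytes. In the IRF4 arm the transferred T cells had been transduced with IRF4-GFP, and in the control arm with GFP alone. Tumours of both arms were therefore treated, and no library came from an untreated tumour. Endogenous CD45+ cells were sorted on day 14 and are not the cells that carried the transgene. Each arm gave 1 endogenous library, and the labels do not state the number of mice behind it. No test of the arms was possible. Ratios between arms are given with intervals that cover counting error only.

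The control library held 123 members with 3296279 UMIs and the IRF4 library held 87 with 1892842. The median member had 26220 UMIs in the control library and 18392 in the IRF4 library. Over the quality-passing barcodes of each library the medians were 10521 and 8437 UMIs. Of the barcodes that met the Xcr1 and Clec9a criterion, 52 of 183 in the control library and 48 of 140 in the IRF4 library were removed for a T cell UMI. The 2 endogenous libraries shared 13 quality-passing barcodes, and no member barcode occurred among the members of the other library. Irf4 stood at 26.7 counts per 1000000 in the transferred T cells of the IRF4 arm and at 24.9 in those of the control arm. The 3′ end of the transduced IRF4 RNA is not stated, so this 3′ count does not check the labels of the arms.

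As background, cDC1 are the dendritic cells that take up dying cells and present their antigens on MHC class I to CD8 T cells, a process called cross-presentation. They depend on the transcription factors IRF8, BATF3 and ID2. XCR1 is the receptor for XCL1, a chemokine made by NK cells and CD8 T cells, and CLEC9A is a lectin that binds actin filaments exposed on dead cells. In tumours, cDC1 are known as a source of CXCL9 and CXCL10, which attract T cells that carry CXCR3.

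The members fell into parts that differed in the cDC1 genes the rule had not used. Both Xcr1 and Clec9a were found in 80 control members and 35 IRF4 members. Clec9a without Xcr1 was found in 38 and 50, and Xcr1 without Clec9a in 5 and 2. Of the members with both genes, 75 of 80 and 34 of 35 held at least 3 UMIs of 4 further cDC1 genes, Itgae, Tlr3, Snx22 and Cadm1. Of the members with Clec9a alone, 8 of 38 and 1 of 50 did. The label of cDC1 therefore held for the members with both genes, and most members with Clec9a alone went against it. The latter are called by that gene in what follows. The median member with both genes held 31291.5 UMIs in the control library and 29452 in the IRF4 library, against 14114.5 and 14523 with Clec9a alone. A count of 3 UMIs is reached more easily in a deeper cell, so the shares above depend on depth as well.

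**Figure D1:**
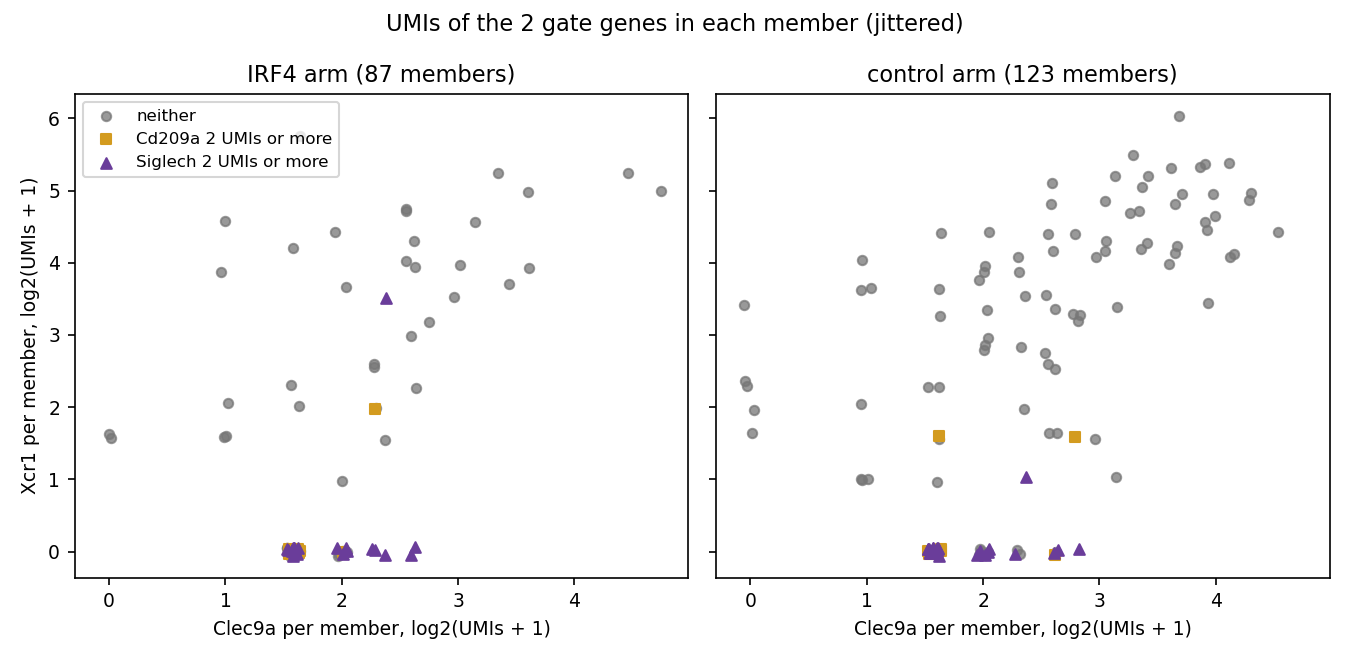
UMIs of Clec9a (x axis) and Xcr1 (y axis) in each member, as log2(UMIs + 1) with a small random offset, for the IRF4 library (87 members) and the control library (123 members). Triangles mark members with at least 2 UMIs of Siglech and squares those with at least 2 of Cd209a. The members without Xcr1 lie along the bottom, and most of the triangles are among them.

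Levels are in CPM (counts per 1000000), in which the UMIs of a gene were divided by all UMIs of a group of cells in 1 library. Pairs of values are given for the control library first, up to the comparison of the arms. Itgae, which encodes the integrin chain CD103, stood at 363 CPM in control members with both genes and at 239 in those of the IRF4 library. In members with Clec9a alone it stood at 7.4 and 2.3 CPM. Tlr3, a sensor of double-stranded RNA, stood at 239 and 167 CPM with both genes and at 29.7 and 8.0 with Clec9a alone. Batf3 stood at 201 and 224 CPM against 66.8 and 48.3, and Id2, an inhibitor of E-protein transcription factors, at 1415 and 1440 against 389 and 273. Irf8 was high in both parts, at 2133 and 1989 CPM with both genes and at 1464 and 1410 with Clec9a alone.

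Members with Clec9a alone carried genes known from plasmacytoid dendritic cells and from other myeloid cells. Siglech, a lectin of plasmacytoid dendritic cells, stood at 616 CPM in the control library and 434 in the IRF4 library, against 10.6 and 6.0 in members with both genes. Tcf4, the E protein that plasmacytoid dendritic cells depend on, stood at 770 and 600 CPM against 35.8 and 40.9. At least 2 Siglech UMIs were found in 22 of the 38 and 21 of the 50 members with Clec9a alone. In those cells Itgae and Snx22 were listed at 0 UMIs in both libraries. Cells gated as plasmacytoid dendritic cells, with at least 2 Siglech UMIs and under 2 of Xcr1 and Clec9a, held Clec9a at 24.6 and 30.2 CPM and no Xcr1 UMI. The remaining members with Clec9a alone, 16 and 29 cells, held Lyz2, a lysozyme gene of monocytes and macrophages, at 6103 and 4919 CPM. Of these cells, 7 of 16 and 1 of 29 held at least 3 UMIs of Itgae, Tlr3, Snx22 and Cadm1, so the 2 libraries differed in this part.

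**Figure D2:**
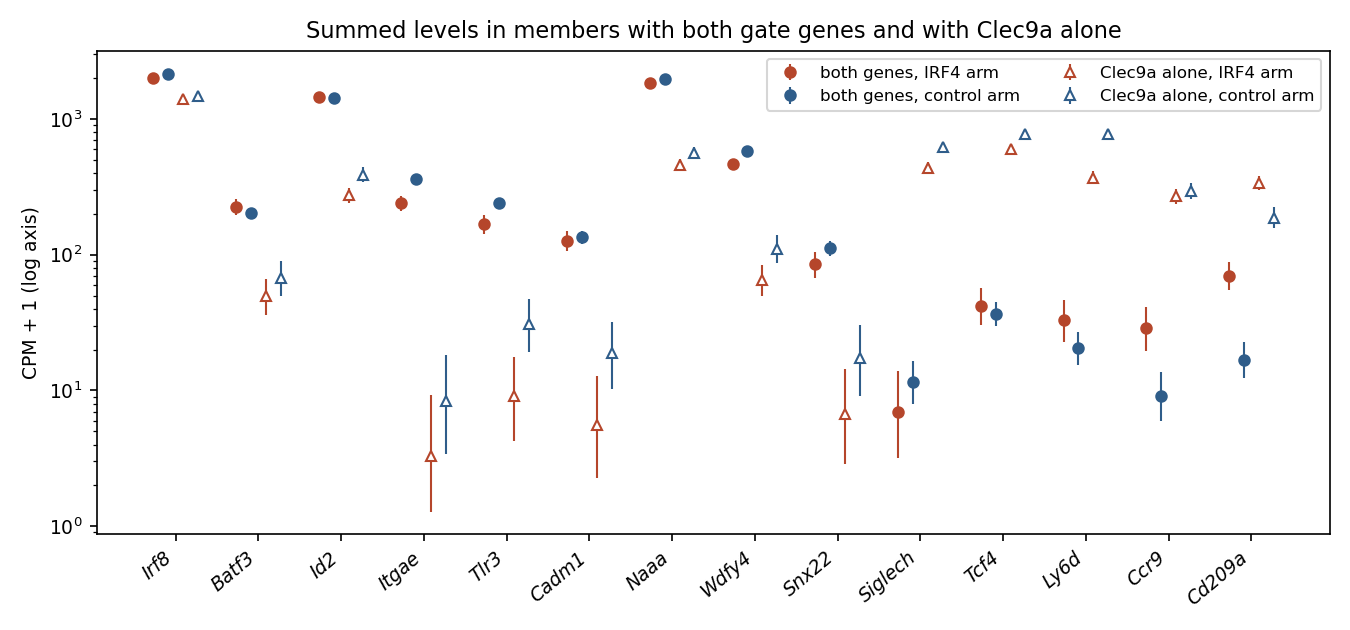
Levels in CPM plus 1 on a log axis of cDC1 genes (Irf8 to Snx22) and of genes known from plasmacytoid dendritic cells or other dendritic cells (Siglech to Cd209a), with 95% exact Poisson intervals. Filled circles are members with both genes and open triangles members with Clec9a alone, red for the IRF4 arm and blue for the control arm. Itgae was at 239 and 363 CPM in the circles and at 2.3 and 7.4 in the triangles, while Siglech was at 6.0 and 10.6 against 434 and 616.

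The cDC1 genes were found in most single members with both genes. Irf8 ranged over control members from 0 to 38.4 UMIs per 10000, with a median of 22.01, and was found in 79 of 80. In the IRF4 library it ranged from 1.23 to 39.8 with a median of 18.7 and was found in 35 of 35. The 2 distributions overlapped over most of their range. Wdfy4, which is required for cross-presentation of cell-associated antigen, was found in 80 of 80 and 34 of 35, and Naaa, a lysosomal amidase, in 78 of 80 and 35 of 35. Itgae was found in 72 of 80 control members with a median of 3.54 UMIs per 10000, and in 27 of 35 IRF4 members with a median of 2.31.

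The threshold of the rule ran through these parts. Members with exactly 2 UMIs of Xcr1 and Clec9a numbered 23 in the control library and 37 in the IRF4 library, and barcodes with exactly 1 UMI that met the other criteria numbered 85 and 88. Itgae stood at 28.1 and 4.7 CPM just inside the threshold and at 6.2 and 9.0 just outside it. Siglech stood at 657 and 385 CPM inside and at 845 and 346 outside. At least 5 UMIs of the gate genes were held by 79 control members and 33 IRF4 members.

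Members made up 2.17% of the quality-passing barcodes of the control library (95% exact Clopper-Pearson interval 1.80 to 2.58) and 1.37% of the IRF4 library (1.10 to 1.68). The ratio of IRF4 to control was 0.630 (0.473 to 0.836, counting error only). Members with both genes made up 1.41% (1.12 to 1.75) and 0.549% (0.383 to 0.763), a ratio of 0.390 (0.254 to 0.587). These were 80 and 35 cells. The T cell criterion had removed further barcodes with both genes, 11 and 11 with 1 to 2 Cd3 UMIs and 1 and 0 with 3 to 5. With 6 or more it had removed 17 and 16. The removed part was thus larger beside the members kept in the IRF4 library. Members with Clec9a alone made up 0.669% and 0.785%. The lower share in the IRF4 library was seen in the members with both genes and not in those with Clec9a alone.

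The share among dendritic cells depended on the gate. Dendritic cells were counted as the members plus cells gated as type 2 conventional (cDC2), mature and plasmacytoid dendritic cells, 582 in the control library and 400 in the IRF4 library. All members together made up 21.1% and 21.8% of them, a ratio of 1.03 (0.773 to 1.37). With both genes required, the shares were 14.8% of 539 and 10.1% of 348 cells, a ratio of 0.678 (0.442 to 1.02), whose interval includes 1. NK cells, a source of XCL1, made up 8.46% of the control library and 13.5% of the IRF4 library, and C1q macrophages numbered 522 and 200. What part the other cell numbers had in the shares was not tested.

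Against cDC2, gated by at least 2 UMIs of the lectin genes Cd209a and Clec10a together, the cDC1 genes stood out in both libraries. Counts were summed per type and library and tested with edgeR's quasi-likelihood test with Benjamini-Hochberg adjustment, with the library as a block. The 2 libraries served as replicates of a type although they differ in arm, and the sums of 1 library share that library. Over all members, 679 of 9778 genes were higher than in cDC2 (6.94% called) and 760 were lower (7.77% called). Members with both genes, a gate applied to these contrasts after the data were seen, had 866 of 9432 higher (9.18%) and 1143 lower (12.1%). Values below are for members with both genes.

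The cDC1 identity list had 21 of 23 tested genes higher and 1 lower, with a median log2 fold change of 3.37 against -0.01 over all genes tested. Irf8 stood at 2133 and 1989 CPM against 149 and 246 in cDC2 and was higher by 3.51 on the log2 scale (SE 0.24, edgeR adjusted p = 6.94e-06). Tlr3 was higher by 6.29 (SE 0.27, adjusted p = 1.33e-06) and Wdfy4 by 3.08 (SE 0.15, adjusted p = 1.3e-06). Gcsam, known as a signalling adaptor of germinal centre B cells, stood at 144 and 134 CPM and was listed at 0 in cDC2 of both libraries. Nfil3, a transcription factor needed for cDC1 development, was the member of the list that was lower, by -1.11 (SE 0.24, adjusted p = 0.00659). Irf4 itself, which cDC2 depend on, stood at 0.41 and 2.0 CPM against 17.1 and 17.1.

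Several receptors and sensors separated the types. Cxcr3, the receptor for CXCL9 and CXCL10, stood at 86.3 and 89.8 CPM against 1.0 and 2.6 in cDC2 and was higher by 5.76 (SE 0.32, edgeR adjusted p = 2.26e-06). Tlr11, a sensor of profilin and flagellin in mice, stood at 57.8 and 49.9 CPM against 2.2 and 3.6 (adjusted p = 3.03e-05). Of 16 innate sensing genes, 4 were higher (Tlr3, Tlr11, Tlr12 and the nuclease gene Dnase1l3) and 7 lower, among them Tlr2, Tlr4 and Tlr7, against 4 and 4 over all members. Havcr2, which encodes the checkpoint receptor TIM-3, was higher by 2.11 (SE 0.24, adjusted p = 0.000151).

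The antigen presentation lists split by function. Of 29 MHC class I and cross-presentation genes, 7 were higher, namely the transporter genes Tap1 and Tap2, the tapasin relative Tapbpl, the proteasome genes Psmb8, Psmb9 and Psme1, and Rab43. Psmb9, a subunit of the immunoproteasome, stood at 863 and 977 CPM against 303 and 378 and was higher by 1.51 (SE 0.12, edgeR adjusted p = 2.08e-05). The 3 lower members, Cybb, Cyba and Rac2, encode parts of the NADPH oxidase. Cybb stood at 39.1 and 40.9 CPM against 393 and 693. Of 13 MHC class II genes, 6 were higher and 3 lower, whereas over all members 1 was higher and 3 lower. H2-Ob, a chain of the H2-O chaperone that restrains peptide loading, was higher by 1.63 (SE 0.20, adjusted p = 0.000203), and Ctss, the protease that trims the invariant chain, was lower by -1.36 (SE 0.12, adjusted p = 2.68e-05). Of 18 lysosomal genes 10 were lower and 1, Psap, was higher.

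Interferon-response and proliferation genes moved in opposite directions. Of 34 type I interferon response genes tested, 22 were lower in members with both genes and none was higher, with a median of -1.84. Over all members 14 were lower and 1 higher, with a median of -0.75, and without members bearing marks of another type 10 were lower and 1 higher, with a median of -0.66. Ifi27l2a stood at 165 and 217 CPM against 851 and 1268 in cDC2 (edgeR adjusted p = 2.87e-06), and Rtp4 at 7.73 and 15.96 against 97.3 and 133. Of 22 interferon-gamma response genes, 13 were lower and none higher, against 5 lower and 1 higher over all members. Cxcl10 stood at 15.1 and 12.0 CPM against 241 and 712, whereas Cxcl9 stood at 131 and 377 against 241 and 709 and did not pass (adjusted p = 0.058). Of 25 proliferation genes, 19 were higher and none lower, with a median of 1.14. Rrm2, a subunit of ribonucleotide reductase, stood at 90.7 and 84.8 CPM against 17.1 and 17.1 (adjusted p = 3.03e-05).

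The cells compared limit this contrast. The cells gated as cDC2 held Lyz2 at 7896 and 13671 CPM and Fn1, a fibronectin gene of monocytes, at 484 and 464, against 586 and 358 and against 4.1 and 1.0 in members with both genes. What part monocyte-derived cells in the cDC2 gate had in the interferon and lysosome lists was not tested. Without the library block the interferon-gamma response list had 0 of 22 genes called in all members against 1 higher and 5 lower with it. Of the genes with the highest folds over all members, Klk1, Ly6d and Atp1b1 changed direction when members with marks of another type were left out.

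**Figure D3:**
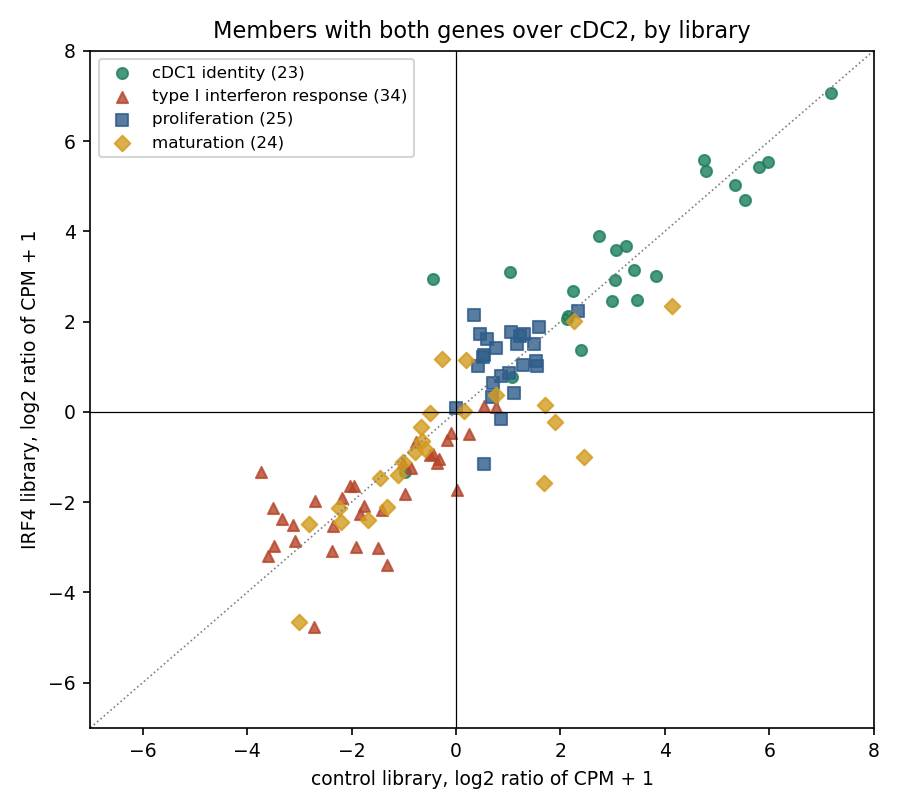
Log2 ratio (CPM + 1) of members with both genes over cDC2 for each gene, in the control library (x axis) and the IRF4 library (y axis), coloured by gene list, with the dotted line marking equal ratios. The identity genes lie to the upper right with 21 of 23 called higher, the proliferation genes just above 0, and the type I interferon genes to the lower left with 22 of 34 called lower.

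Cell cycle genes were found in many members. At least 1 UMI of Mki67, Top2a, Birc5, Cdk1 or Ccnb2 was found in 56.3% of control and 62.9% of IRF4 members with both genes. After each cell was thinned to 2000 UMIs, the shares were 28.8% (19.2 to 39.95) and 28.6% (14.6 to 46.3). In cDC2 the thinned shares were 10.1% and 3.52%.

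Mature dendritic cells, gated by Fscn1, Ccl22 and Ccr7, are known to carry dendritic antigen to lymph nodes and can arise from cDC1. Over all members, 1830 of 9778 genes were higher than in mature cells (18.7% called) and 2058 lower (21% called). For members with both genes, 1708 of 9432 were higher (18.1%) and 1919 lower (20.3%). This contrast depended on scaling: TMM factors moved the log2 folds over all members by -0.34 relative to scaling by summed UMIs, under which 2967 were higher and 1376 lower. Scaling by summed UMIs was run over all members only. For members with both genes TMM factors moved the log2 folds by -0.24, and folds and counts of genes for that part are under TMM factors.

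All 23 tested maturation genes were lower in members with both genes, with a median of -4.75, although the mature gate selects cells on related genes. Il12b, a subunit of interleukin 12, stood at 5.3 and 0 CPM in members against 542 and 730 in mature cells. Cd40, the receptor for T cell help, stood at 16.3 and 27.9 CPM against 223 and 246 and was lower by -3.71 (SE 0.22, edgeR adjusted p = 6.71e-07). Ccl5, a chemokine for T cells and NK cells, stood at 75.7 and 138 CPM against 10567 and 7890. Of 16 costimulation and checkpoint genes, 13 were lower, among them Cd80, Cd86 and Cd274, and 2 were higher, Havcr2 and Vsir.

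The transcription factor genes of cDC1 were at high levels in mature cells as well, whereas most other identity genes were not. Batf3 stood at 201 and 224 CPM against 211 and 254 in mature cells (edgeR adjusted p = 0.143 with both genes required), and Id2 at 1415 and 1440 against 1041 and 1216 (adjusted p = 0.69). Over all members Batf3 was lower by -0.88 (SE 0.20, adjusted p = 0.00511). Irf8 was higher in members by 0.71 (SE 0.22, adjusted p = 0.0256), and over all members by 0.44 (SE 0.22, adjusted p = 0.148). In contrast Tlr3 stood at 239 and 167 CPM against 0.8 and 2.0, and Naaa at 1974 and 1855 against 62.1 and 22.3 (adjusted p = 1.12e-05). The identity list had 18 of 23 genes higher and 2 lower, Nfil3 and Ly75, an endocytic receptor.

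Most class II genes were higher, and several class I genes lower, than in mature cells. Of 13 class II genes, 8 were higher and 2 lower. H2-DMb1, a chain of the peptide exchange factor H2-M, was higher by 3.41 (SE 0.13, edgeR adjusted p = 8.04e-08), and March1, a ligase that removes class II from the surface, by 5.07 (SE 0.31, adjusted p = 8.91e-07). H2-K1 was lower by -1.52 (SE 0.11, adjusted p = 1.92e-06) and B2m by -1.62 (SE 0.10, adjusted p = 7.96e-07). Over all members the class I list had 5 genes higher and 14 lower, and 8 and 11 with scaling by summed UMIs.

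Between the arms, genes of the interferon-gamma response and immediate early lists were higher in the IRF4 library past the ratio used. A gene was measured with at least 25 CPM in either library and at least 20 UMIs over both. It was counted as higher or lower past a ratio of 1.5 on the log2(CPM + 1) scale. A gene with 25 CPM in 1 library alone entered through the library where it was higher, which favours a ratio past 1.5. Over all members, 259 of 5018 measured genes were higher in the IRF4 library (5.16%) and 128 lower (2.55%). With TMM scaling the counts were 203 and 171, and with median-of-ratios scaling 213 and 163. With both genes required, 188 of 4771 were higher (3.94%) and 205 lower (4.3%). None of these is a test, since each arm is 1 library. From here on the IRF4 library is given first.

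The transcription factors of cDC1 differed little between arms in members with both genes. Irf8 stood at 1989 CPM in the IRF4 library against 2133, a ratio of 0.933 (0.885 to 0.982). Batf3 had a ratio of 1.12 (0.950 to 1.31) and Id2 of 1.02 (0.956 to 1.08). Itgae stood at 239 against 363 CPM, a ratio of 0.659 (0.569 to 0.761), and was the identity gene that was lower past the ratio among 22 measured. Tlr3 had a ratio of 0.698 (0.584 to 0.830). Cd8a, found on cDC1 of lymphoid organs, was the identity gene that was higher, at 26.9 against 6.10 CPM, and 3 members of each library held at least 50% of its UMIs.

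Over all members the same list had 9 of 23 measured genes lower and 2 higher, with a median of -0.43. Itgae had a ratio of 0.467 (0.404 to 0.539) there and Cadm1, an adhesion molecule of cDC1, of 0.612, against 0.942 in members with both genes. Members with Clec9a alone were 50 of 87 against 38 of 123, and the part of that share in these values was not tested. Among members with Clec9a alone, 4 of 15 measured identity genes were lower and 1 higher, with a median of -0.26 (10.7% of all measured genes lower, 8.44% higher). With both genes required, 1 of 22 measured identity genes was lower and 1 higher, and the median was -0.07.

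The interferon-gamma response list was higher in the IRF4 library among members with both genes and among members with Clec9a alone. Over all members, 17 of 20 measured genes were higher and none lower, with a median log2 ratio of 0.89 against 0.05 over all measured genes. With both genes required, 10 of 17 were higher, with a median of 0.70, and with Clec9a alone 18 of 21 (8.44% of all measured genes higher, 10.7% lower), with a median of 0.91. The range over the other ways of processing was 7 to 19 genes higher. The 18 with Clec9a alone did not include Cxcl9 or Iigp1. That part differed in make-up between the libraries, since 1 of 50 and 8 of 38 cells held at least 3 UMIs of Itgae, Tlr3, Snx22 and Cadm1. The 10 with both genes required were Cxcl9, Gbp7, Iigp1, Ifi47, Tgtp1, Tgtp2, Socs1, Serpina3g, Cd274 and Nlrc5. Among these 10, Gbp7, Tgtp2, Cd274 and Nlrc5 reached the minimum of 25 CPM in the IRF4 library and not in the control library. The minimum itself thus favoured a high ratio for them.

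Before their values, the promoters of 4 of these 10 genes are shown, because they differ in motifs of interferon signalling. Each sequence runs from 250 bases before to 50 after a RefSeq transcript start (GRCm38.p6), 5′ to 3′ on the gene's strand. Capitals mark matches on either strand to TTCNNNGAA, the core of a motif known from promoters that interferon-gamma induces, or to GAAA followed after any 2 bases by GAAA, the core of the interferon-stimulated response element. Adjacent and overlapping matches run together in capitals. TTCNNNGAA was found in 8.3% of 32851 promoters of this length and the other motif in 3.44%. Of the 17 list genes with a promoter in the table, 9 held the former motif and 11 the latter. A match is a description and not a binding site.
The promoter of Gbp7, a guanylate-binding protein, lies at chr3:142530086-142530385 on the plus strand.
Gbp7: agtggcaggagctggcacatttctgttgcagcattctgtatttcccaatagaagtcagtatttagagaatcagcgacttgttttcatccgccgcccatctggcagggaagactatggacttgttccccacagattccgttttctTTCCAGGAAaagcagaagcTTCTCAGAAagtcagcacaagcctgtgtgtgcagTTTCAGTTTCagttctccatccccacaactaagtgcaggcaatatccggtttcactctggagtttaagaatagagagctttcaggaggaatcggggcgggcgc
The promoter of Tgtp2, an immunity-related GTPase, lies at chr11:49064163-49064462 on the minus strand.
Tgtp2: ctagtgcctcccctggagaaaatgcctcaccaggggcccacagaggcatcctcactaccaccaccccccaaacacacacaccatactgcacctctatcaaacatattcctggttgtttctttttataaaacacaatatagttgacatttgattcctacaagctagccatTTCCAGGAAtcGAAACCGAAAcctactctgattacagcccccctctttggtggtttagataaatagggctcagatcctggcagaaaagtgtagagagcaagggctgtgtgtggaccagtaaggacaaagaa
The promoter of Socs1, a feedback inhibitor of JAK kinases, lies at chr16:10785487-10785786 on the minus strand.
Socs1: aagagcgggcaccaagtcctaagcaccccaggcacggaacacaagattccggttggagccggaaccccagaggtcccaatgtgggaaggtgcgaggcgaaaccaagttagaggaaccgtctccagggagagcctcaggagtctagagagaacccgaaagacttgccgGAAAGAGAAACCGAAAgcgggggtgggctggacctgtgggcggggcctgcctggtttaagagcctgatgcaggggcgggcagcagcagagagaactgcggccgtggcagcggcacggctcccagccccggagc
The promoter of Cxcl9 lies at chr5:92328030-92328329 on the minus strand, and neither string of letters is in this window.
Cxcl9: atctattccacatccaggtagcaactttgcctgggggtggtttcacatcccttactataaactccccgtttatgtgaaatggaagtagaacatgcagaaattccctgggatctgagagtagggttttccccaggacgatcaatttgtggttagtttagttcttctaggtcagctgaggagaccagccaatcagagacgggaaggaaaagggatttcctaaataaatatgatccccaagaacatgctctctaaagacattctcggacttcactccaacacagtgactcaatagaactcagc

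In members with both genes, Iigp1, an immunity-related GTPase, stood at 150 CPM in the IRF4 library against 39.5, a ratio of 3.79 (2.92 to 4.95). Tgtp2 stood at 38.9 against 10.2 CPM, a ratio of 3.83 (2.26 to 6.59), and Gbp7 at 25.9 against 11.8, a ratio of 2.20 (1.24 to 3.87). Socs1 had a ratio of 1.51 (1.12 to 2.04). The ratio was not shared by all of the list, since Gbp2, a guanylate-binding protein, stood at 110 against 105 CPM and Irf1, a transcription factor induced by interferon, at 91.8 against 87.1.

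Cxcl9 stood at 377 against 131 CPM, a ratio of 2.88 (2.47 to 3.35). Its UMIs were concentrated, with 2 IRF4 members and 3 control members holding at least 50% of them. The highest IRF4 member with both genes held 93.1 UMIs per 10000 and the highest control member 23.97, and the medians were 0.337 and 0. Cxcl9 was found in 19 of 35 and 30 of 80 of these members. Thinned to 2000 UMIs, the shares with a Cxcl9 UMI were 22.9% (10.4 to 40.1) and 11.3% (5.28 to 20.3), and these intervals overlap. In NK cells, which are not known to make it, the shares were 0.933% and 0.629%. Iigp1 was concentrated likewise, with 3 and 4 members holding at least 50% of its UMIs.

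Cxcl10 depended on the part of the members. Over all members it stood at 238 CPM in the IRF4 library against 94.96, a ratio of 2.50 (2.16 to 2.90), and 2 IRF4 members and 1 control member held at least 50% of its UMIs. In members with both genes it stood at 12.0 against 15.1 CPM, below the minimum for a measured gene. Cd274, which encodes PD-L1, stood at 36.9 against 17.9 CPM in members with both genes, a ratio of 2.06 (1.30 to 3.27).

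**Figure D4:**
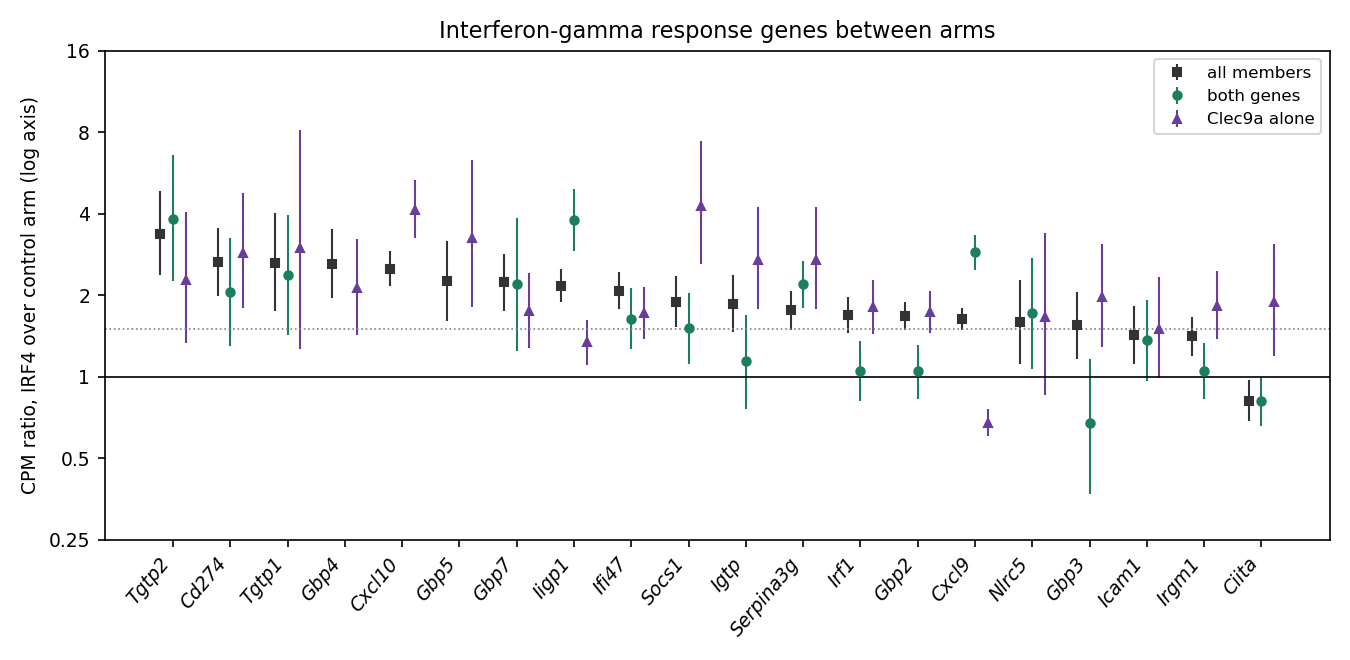
Ratio of CPM in the IRF4 library to the control library (log axis) for the 20 interferon-gamma response genes measured over all members, with 95% exact binomial intervals for counting error, in all members, members with both genes and members with Clec9a alone, where measured. The solid line marks a ratio of 1 and the dotted line 1.5. Most points lie above the dotted line, while Gbp2 and Irf1 with both genes lie at 1.05.

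In cDC2 most of the list passed the ratio and in mature cells almost none did, although the median was above 0 in both, and the difference was not tested. In cDC2, 13 of 20 interferon-gamma response genes were higher in the IRF4 library and none lower (6.11% of all measured genes higher, 4.87% lower), with a median of 0.70. In mature cells none of 19 was higher (6.53% of all measured genes) and 1, Ciita, was lower (10.2% of all), with a median of 0.27.

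The count of type I interferon response genes higher in the IRF4 library depended on the part of the members. Over all members 16 of 25 were higher, with a median of 0.65. Among members with both genes 2 of 15 were higher, Isg15 and Zbp1, with a median of 0.14, and with Clec9a alone 9 of 28, with a median of 0.40. No gene of the list was lower in any of these. Members with Clec9a alone were 50 of 87 in the IRF4 library and 38 of 123 in the control library, and the part of that share in the count over all members was not tested. Isg15, a ubiquitin-like protein, stood at 75.8 against 28.5 CPM, a ratio of 2.66 (1.90 to 3.74), and 2 and 4 members held at least 50% of its UMIs. Zbp1, a sensor of Z-form nucleic acids, stood at 132 against 71.2 CPM, a ratio of 1.85 (1.46 to 2.33), spread over 6 and 13 members by the same measure.

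Several immediate early genes, which respond within minutes to stimuli and to tissue dissociation, were higher in the IRF4 library. The list of 20 genes counted here as the immediate early list also held heat shock and chaperone genes, such as Hspa1a and Hspa8. In members with both genes, 7 of 20 were higher, none of them a heat shock gene, and none was lower, with a median of 0.13. Over all members 12 were higher, among them Hspa1a and Hspa1b. Fos, an AP-1 subunit, stood at 786 against 386 CPM, a ratio of 2.04 (1.85 to 2.24), spread over 8 and 17 members at 50% of its UMIs. Ier2 stood at 239 against 102 CPM, a ratio of 2.34 (1.96 to 2.81). In cDC2, 13 of 20 were higher, among them Hspa1a and Dnajb1, and none lower, with a median of 1.17. In mature cells 7 of 19 were higher (6.53% of all measured genes), with a median of 0.25. There 3 were lower (10.2% of all), namely Hspa1a, Hspa1b and Hspe1. What part the handling of the 2 tumours had in these genes was not tested.

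Among cytokines and chemokines, 5 of 11 measured genes were higher with both genes required, Il1b, Ccl3, Ccl4, Ccl5 and Cxcl9, and 2 lower, Ccl9 and Cxcl2. Ccl4, an inflammatory chemokine, stood at 73.8 against 10.6 CPM, a ratio of 6.98 (4.41 to 11.4), with 3 members of each library holding at least 50% of its UMIs. Il1b and Ccl5 rested on 1 IRF4 member by that measure. Markers of NK cells summed to 96.8 CPM in the IRF4 members with both genes against 43.1, and Gzma, a granzyme of NK and T cells, stood at 57.9 against 20.3 with 1 member of each library holding at least 50% of its UMIs. The part of attached or lysed NK cells in the chemokine values was not tested.

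Presentation genes differed less. None of 13 class II genes passed the ratio in either direction with both genes required, and Nlrc5, the activator of class I genes, was the single class I gene that did, at 32.9 against 19.1 CPM. H2-K1 stood at 1648 against 1317 CPM, a ratio of 1.25 (1.18 to 1.33), and B2m had a ratio of 1.09. Cd40 was higher, at 27.9 against 16.3 CPM, a ratio of 1.72 (1.02 to 2.85), and Cd86 was at 180 against 160.

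Some cell cycle and hypoxia genes were lower in the IRF4 library with both genes required. Of 24 measured proliferation genes, 5 were lower and 1, the replication helicase subunit Mcm6, was higher. Mki67 stood at 103 against 217 CPM, a ratio of 0.474 (0.380 to 0.586), with 3 and 5 members holding at least 50% of its UMIs. The histone gene Hist1h1b stood at 40.9 against 194 CPM, a ratio of 0.211 (0.149 to 0.290), with 1 and 4 members. The shares of members with a cycle gene were 28.6% and 28.8% after thinning. Of 18 glycolysis and hypoxia genes 4 were lower, Slc2a1, Slc16a3, Bnip3 and Hilpda, with a median of -0.32, and none was higher. Members with Clec9a alone went the other way for proliferation, with 15 of 20 genes higher, none lower and a median of 2.33. Single IRF4 members of that part held 157, 74, 59 and 42 UMIs of the cycle genes, and each of the others 2 or fewer. After thinning, a cycle gene was found in 12% (4.53 to 24.3) of IRF4 and 7.89% (1.66 to 21.4) of control members with Clec9a alone. That part had 1 of 21 glycolysis and hypoxia genes higher and 2 lower. Over all members 3 of 23 proliferation genes were lower and none higher, and no glycolysis and hypoxia gene of 18 passed the ratio (median 0.01). Over the other ways of processing, up to 4 proliferation and up to 6 glycolysis and hypoxia genes were higher.

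Several of the lowest ratios were of macrophage genes or of genes held mostly by 1 control member, with the histone genes and Hilpda as exceptions. C1qb, a complement subunit of macrophages, was listed at 0 against 59.4 CPM in members with both genes. Macrophage markers summed to 394 CPM there in the IRF4 library, with 5 of 10 detected and C1qa, C1qb, C1qc and Mrc1 among those at 0, and to 812 in the control library. Hmox1, a haem oxygenase, stood at 9.98 against 167 CPM, and 1 control member held at least 50% of its UMIs. Ccr7, which guides mature cells to lymph nodes, stood at 0.998 against 48.0 CPM, again with 1 control member holding at least 50%. What part macrophage material had in these ratios was not tested.

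The ligand of XCR1 was measured in NK cells. Xcl1 stood at 602 CPM in NK cells of the IRF4 library and 802 in those of the control library, and at 3.17 and 0.910 in all members. Flt3l, the growth factor of dendritic cells, stood at 32.9 and 29.4 CPM in NK cells, and its receptor gene Flt3 at 176 and 210 in members with both genes.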

How the data were processed

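The 4 libraries, made with the 10x Genomics 3′ method from sorted cells, were deposited as UMI counts per gene and barcode, 28692 genes each. Per the submitters' processing notes the authors used Cell Ranger 3.0.2, STAR 2.6 and the mm10 build; no annotation version is stated in the sources used here. Per the labels' protocols a Chromium 3′ v3 kit was used, and the text speaks of a nucleus suspension although the samples are called cells. The counts were used as deposited. Free RNA was not removed, no doublet caller was run, and a doublet with a T cell was removed through its Cd3 UMIs. Cells with 1 or 2 Cd3 UMIs were brought back as an alternative. The members, gates and gene lists were chosen with earlier results of these data known. The edgeR test was also run for members with both genes against members with Clec9a alone, with 558 of 9032 genes higher and 879 lower. The description of that split above uses levels and counts of cells and not this test.

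UMIs were summed per library and type. Arms were compared as CPM ratios, with exact conditional binomial intervals for ratios, exact Poisson intervals for levels and Clopper-Pearson intervals for shares, all at 95% and for counting error only. PCR copies were collapsed by UMI, but UMIs of 1 cell are not independent samples of an arm. Types were compared with edgeR 4.0.16 (quasi-likelihood, TMM factors, library block, 3 residual degrees of freedom, adjusted p under 0.05) over 4 dendritic types, leaving out the genes of the gates. The 2 libraries stand behind each type, and no label gives the mice behind them. The library term takes up the spread between the 2 libraries. These p-values rest on how far differences between types varied from 1 library to the other, pooled over the 4 types. They do not measure the spread between mice. The library is the block that pairs the sums of 1 library. On simulated counts for the contrast with cDC2 (9789 genes), 91% of genes changed by a log2 fold of 1 and 100% of those changed by 2 were recovered, with 0.0521% of unchanged genes called. The changed genes were drawn from those with a mean above 50 UMIs. Counts were simulated with the spread the fit had estimated and with no difference between libraries except depth. The simulation therefore checks the code and cannot give the error rate for 2 libraries that differ in arm. DESeq2 1.42.0 was the alternative test. Named genes were a primary list, the 10 highest and 10 lowest in each comparison with at least 50 CPM, and up to 4 per gene list, of which the text gives those with a known role. Python 3.11.15 and R 4.3.3 were used.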

Additional observations from a re-analysis of the deposited data

How the results depend on the processing

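With at least 5 UMIs of the gate genes the share of members had a ratio of 0.372 between arms, and with 1 UMI of each gene 0.390. Among dendritic cells these ratios were 0.650 and 0.678. The number of genes higher in the IRF4 library, 259, was 543 without cycling members, 1784 with no filter on low values, 78 at 100 CPM and 410 after thinning to 2000 UMIs. The number lower, 128, was 205 with 1 UMI of each gene, 289 without cycling members, 1259 with no filter, 27 at 100 CPM and 345 after thinning. Fewer genes were measured at 100 CPM and more with no filter. For the other alternatives the cause was not tested. Over these settings the interferon-gamma response list had 7 to 19 genes higher between arms, the type I list 2 to 21, the immediate early list 7 to 14, and the identity list 0 to 12 lower.

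Against cDC2, 679 higher genes became 382 with DESeq2, and 760 lower genes became 395 with DESeq2, 477 with no replicate block, 1160 with 5 UMIs and 1143 with 1 UMI of each gene. Without the library as replicate block, 495 genes were higher than in cDC2, and 1677 were higher and 1904 lower than in mature cells. Scaling by summed UMIs, added after the data were seen, as were the Cd3 alternative and the gate on each gene in the contrasts of types, gave 2967 genes higher than in mature cells. Leaving out a library left no residual degrees of freedom, so those settings gave log2 ratios of single genes and no counts.

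Some single genes reversed. Between arms, the log2 ratio of Cxcl10 was -0.28 with 5 UMIs and -0.31 with 1 UMI of each gene, and that of Ifit3 was -0.28 with members weighted equally and -0.17 after thinning. Mki67 was at 0 without cycling members, by construction, and Klk1 at 0 without marks of another type. Ifitm6 was at -1.20 and Ccl2 at 0.81 with 5 UMIs. Lpl was at 0.94 with 5 UMIs, 0.49 with 1 UMI of each gene, 0.72 without marks of another type and 0.59 without cycling members, and C3ar1 at 0.16 without cycling members. Against cDC2 without marks of another type, Klk1 was at -2.33, Ly6d at -0.47 and Atp1b1 at -1.42. Against mature cells, Id2 was at 0.036 with 5 UMIs, 0.093 with 1 UMI of each gene, 0.16 without the IRF4 library and -0.43 without the control library. Cxcl10 was at -2.22 with 5 UMIs, -2.31 with 1 UMI of each gene and -0.026 without marks of another type, and Tap1 at 0.084 without the IRF4 library and -0.25 without the control library. Members with both genes number 35 and 80, which limits shares and genes under about 25 CPM.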

Other observations

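The transferred Pmel-1 libraries were sorted for CD8 T cells and are in no comparison above. The same rule found 2 of 572 barcodes in the transferred IRF4 library, a share of 0.350% (95% exact Clopper-Pearson interval 0.0424 to 1.26). It found 0 of 2513 in the transferred control library, which allows a share of up to 0.119% by a limit of 3 counts.

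Barcodes removed by the T cell criterion held a further set of cells with both Xcr1 and Clec9a. At least 6 UMIs of Cd3d, Cd3e and Cd3g were found in 27 such barcodes of the control library, 17 of them with both gate genes, and in 29 of the IRF4 library, 16 of them with both. Their median depths were 36219 and 49395 UMIs, above the 26220 and 18392 of the members. Barcodes with 1 or 2 Cd3 UMIs numbered 14 and 19, 11 with both genes in each library, and held Irf8 at 2000 and 1978 CPM and Xcr1 at 499 and 368. With the latter cells taken as members, the ratio of shares between arms was 0.689 (0.530 to 0.895).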
